A study of Mus musculus with 12 samples.

Results

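The mitochondrial genome of the mouse carries 37 genes, and all 37 of the 55487 genes in the count table whose symbol starts with mt- were taken here. They are the 13 protein-coding genes, the 2 rRNA genes (mt-Rnr1 and mt-Rnr2) and the 22 tRNA genes of chromosome M. Each is annotated as 1 exon without introns. RNA was sequenced in 12 libraries, 3 in each of 4 groups, all from C57BL/6 mice aged 6 to 10 weeks. SI tissue and LI tissue are crypts freshly isolated from the small and the large intestine, 1 mouse per library, although the labels call them in vivo tissue. SI monolayers and LI monolayers are cells of such crypts kept for 24 h in control medium that contains growth factors, with the RNA of pooled wells in each library. Per the methods, this medium held Wnt3a, EGF, Noggin and R-spondin-1. The crypts were first seeded in a different medium with added small-molecule compounds, which was changed after 4 h. Within a region, tissue and monolayers differ in everything that attachment and culture change, and the crypts of the small intestine (jejunum for the monolayers) and of the large intestine were released by different procedures, so that region and isolation cannot be told apart. The separation of the monolayer libraries by mouse or culture was not given in the sources used here, and their spread may be technical. Per the methods, the monolayers of both regions came from the same mice, so SI and LI libraries may share animals.

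Mitochondrial DNA is present in many copies per cell and is transcribed from both strands into long precursors that are cut into rRNAs, mRNAs and tRNAs. Many of the cuts fall at the tRNAs, which lie between the larger genes. The 13 proteins are core subunits of respiratory complexes I, III and IV and of the ATP synthase (complex V), while all other subunits, the mitochondrial ribosomal proteins and the transcription machinery are made from nuclear genes. In the intestine, absorptive cells and dividing crypt cells draw on respiration to different extents.

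The sequences matter for how these genes can be counted, because 7 of the 13 protein-coding genes have a near-identical copy in the nuclear genome. The copies are annotated pseudogenes that lie side by side on the minus strand of chromosome 1, at chr1:24611535-24616197 in GRCm38. The alignments to this stretch of 4663 bases span chrM:6390-11042. The copies of mt-Co2, mt-Atp6, mt-Co3, mt-Nd4l and the first 876 bases of mt-Nd4 were identical to the mitochondrial gene over the aligned length. The copy of mt-Co1 aligned only to the last 483 of its 1545 bases. The copies of mt-Co1 and mt-Nd3 each differed at 1 base of the aligned length, A1066T for mt-Co1 and T3C for mt-Nd3. Positions count from 1 at the start of the mitochondrial gene, and the mitochondrial base stands first. The windows that hold these differences are shown from GENCODE transcripts of GRCm38, 5′ to 3′ along the transcript, with the differing base in capitals (mt-Co1 at chrM:6390-6423, plus strand; Gm29216 at chr1:24616155-24616188, minus strand; mt-Nd3 at chrM:9459-9491, plus strand; Gm28438 at chr1:24613087-24613119, minus strand).
mt-Co1: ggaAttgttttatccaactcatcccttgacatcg
Gm29216: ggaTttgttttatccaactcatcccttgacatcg
mt-Nd3: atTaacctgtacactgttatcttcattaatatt
Gm28438: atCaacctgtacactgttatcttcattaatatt

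The gene mt-Nd4l, a short subunit of complex I, is shown whole as the example of a gene that reads can hardly place (chrM:9877-10173, plus strand). The capitals mark its last 3 bases, which lie past the stretch aligned to the nuclear copy Gm10222. They are among the 7 bases that mt-Nd4l shares with mt-Nd4, whose copy Gm28439 was identical there. The capitals thus mark where the alignment to Gm10222 ends, not bases that are absent from chromosome 1.
mt-Nd4l: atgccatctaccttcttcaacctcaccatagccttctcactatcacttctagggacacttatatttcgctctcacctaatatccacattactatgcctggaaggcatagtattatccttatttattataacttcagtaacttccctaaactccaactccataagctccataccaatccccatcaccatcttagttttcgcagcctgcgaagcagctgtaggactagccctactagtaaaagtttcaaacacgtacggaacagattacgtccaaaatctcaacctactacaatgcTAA

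The proline tRNA mt-Tp is shown because it was the 1 tRNA gene with enough counts to be tested (chrM:15356-15422, minus strand). Its anticodon is in capitals.
mt-Tp: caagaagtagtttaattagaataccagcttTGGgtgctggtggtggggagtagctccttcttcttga

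The libraries held 59016196 to 76216530 counts (median 69256790). If counts are independent, a count of 0 allows up to 3 counts, for counting error only. These corresponded to 0.0394 to 0.0508 CPM (counts scaled to the library size, here the unscaled total). If both mates of a fragment were counted, the limit would be higher. All other values in CPM use library sizes after TMM scaling. Epithelial markers were high in every group: the 12 genes of that list summed in SI to 15037 to 16509 CPM (tissue) and 29637 to 30507 CPM (monolayers), and in LI to 24802 to 24929 CPM (tissue) and 38138 to 39236 CPM (monolayers). The 12 immune genes summed in SI to 455 to 548 CPM (tissue) and 53.3 to 59.3 CPM (monolayers), and in LI to 47.1 to 57.0 CPM (tissue) and 3.84 to 5.63 CPM (monolayers). Single genes made up most of the SI sums: Gzma held 265 to 350 CPM in tissue and Lyz2 38.6 to 43.8 CPM in monolayers. Lyz2 stood at 23.0 to 73.2 CPM in SI tissue and 5.54 to 9.18 CPM in LI tissue, so the sums of SI monolayers and LI tissue rest on different genes. The endothelial markers Cdh5 and Emcn had no count in any library of SI monolayers. The mesenchymal list summed in SI to 27.3 to 53.8 CPM (tissue) and 25.0 to 35.8 CPM (monolayers). In LI it summed to 55.4 to 93.8 CPM (tissue) and 66.3 to 89.8 CPM (monolayers). The endothelial and erythrocyte list was lower in monolayers. It summed in SI to 18.6 to 24.3 CPM (tissue) and 1.30 to 1.82 CPM (monolayers), and in LI to 72.8 to 80.4 CPM and 5.25 to 5.65 CPM.

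The mitochondrial transcripts took a larger share of the library in tissue than in monolayers, and the gap was wider in the small intestine. The 13 protein-coding genes took 8.67%, 5.57% and 4.28% of all counts in the libraries of SI tissue, against 0.524%, 0.526% and 0.444% in SI monolayers. In LI tissue they took 2.38%, 2.45% and 2.12%, against 0.640%, 0.646% and 0.608% in LI monolayers. No library of one group reached into another group, and the ratio of the mean shares of tissue to monolayers was 12.4 in SI (6.17 ± 2.26% against 0.498 ± 0.0465%; SD, n = 3) and 3.67 in LI (2.32 ± 0.171% against 0.631 ± 0.0206%). These shares are descriptions without a test.

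The 2 rRNA genes, whose products form the core of the mitochondrial ribosome, took 0.463%, 0.335% and 0.261% of the counts in SI tissue and 0.0336%, 0.0314% and 0.0272% in SI monolayers. In LI tissue they took 0.150%, 0.132% and 0.122%, and in LI monolayers 0.0920%, 0.102% and 0.0943%. The ratio of the mean shares of tissue to monolayers was thus 11.5 in SI, near that of the protein-coding genes, and 1.41 in LI, well below it. LI monolayers had a higher share of rRNA counts than SI monolayers, by a ratio of 3.12, against 1.27 for the protein-coding genes.

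The 22 tRNA genes took 0.0117% to 0.0218% of the counts of SI tissue and 0.000760% to 0.00140% of those of SI monolayers. For LI these shares were 0.00458% to 0.00464% with tissue and 0.00150% to 0.00204% with monolayers. Again the 4 groups did not overlap. In each class the order of the libraries of SI tissue was the same, with replicate 1 highest and replicate 3 lowest. The 12 markers of small intestinal enterocytes, the absorptive cells, summed to 28236, 25574 and 18107 CPM in the same 3 libraries, in the same order, and to 5880 to 6093 CPM in SI monolayers. The 12 markers of colonocytes, the absorptive cells of the colon, summed to 5843, 7893 and 5651 CPM in replicates 1, 2 and 3 of LI tissue, the order of the protein-coding but not of the rRNA share, and to 841 to 874 CPM in LI monolayers. Of these markers, 8 of 12 in the enterocyte list were called lower in SI monolayers (median log2 fold change -2.75; 16.4% of all tested genes by the call given below) and 11 of 12 in the colonocyte list in LI monolayers (median -2.75; 23.5%). Markers of absorptive cells and the mitochondrial share were thus both lower in monolayers in both regions, but not in the same proportion. The mean marker sum went from 23972 to 5977 CPM in SI and from 6462 to 855 CPM in LI. It fell more in LI, whereas the mitochondrial share fell more in SI. The part of these cells in the result was not tested. In bulk samples, fewer cells of a type and less RNA per cell cannot be told apart.

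**Figure D1:**
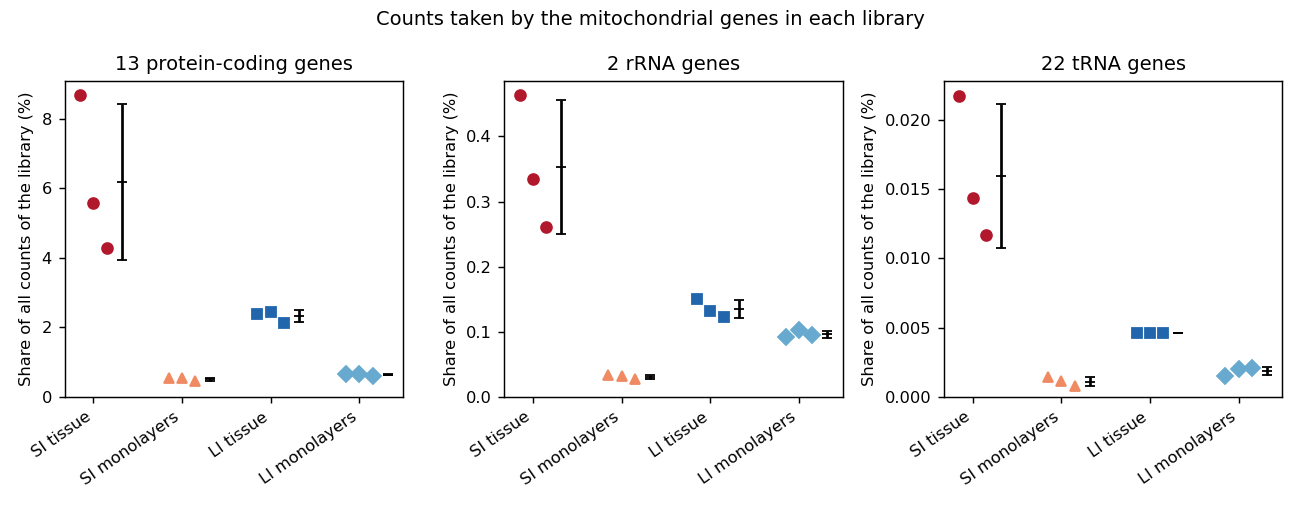
Share of all counts of a library (%, vertical axes with separate scales that start at 0) taken by the 13 protein-coding, 2 rRNA and 22 tRNA genes of the mitochondrial genome; each point is 1 library and the bars give the mean ± SD of 3. SI tissue is highest and SI monolayers lowest in every class, and LI monolayers come closest to LI tissue for rRNA.

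A low-count filter left 16 of the 37 genes for testing: the 13 protein-coding genes, both rRNA genes and mt-Tp. Differences were tested with edgeR's quasi-likelihood test on all 19581 genes that passed the filter, with p-values adjusted by the Benjamini-Hochberg method, and a gene was called with an adjusted p-value under 0.05 and a log2 fold change of at least 1 in size. Levels of the mitochondrial genes are given below as this CPM per kilobase of gene.

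In the small intestine, all 16 tested genes fell in monolayers, where 16.4% of all tested genes were called lower. The log2 fold changes ran from -3.18 (mt-Nd3) to -4.76 (mt-Atp8), with a median of -3.75, against a median of -0.05 over all tested genes. The 3 libraries of SI tissue lay above the 3 of SI monolayers for all 16 genes, and 66.4% of all tested genes showed no overlap in this comparison.

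In the large intestine, 12 of the 16 genes fell in monolayers, where 23.5% of all tested genes were called lower. The median log2 fold change of the 16 was -1.48, against -0.05 over all tested genes. The 4 genes not called were mt-Rnr1, mt-Rnr2, mt-Nd5 and mt-Nd6. All 16 were without overlap between LI tissue and LI monolayers, as were 73% of all tested genes, so that each of the 4 lay lower in every monolayer library while missing a threshold.

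mt-Co1 (chrM:5328-6872, plus strand), the catalytic core of cytochrome c oxidase, had the highest count of all genes in each of the 6 tissue libraries, and ranked 16 to 21 in SI monolayers and 8 to 11 in LI monolayers. Its level was 31561, 19237 and 13812 CPM per kilobase in SI tissue and 1628, 1658 and 1455 in SI monolayers. In LI it was 9504, 10071 and 8593 in tissue and 2398, 2381 and 2255 in monolayers. The groups were apart in both regions, with a log2 fold change of -3.77 ± 0.28 (SE; adjusted p = 2.6e-06) in SI and -2.00 ± 0.26 (adjusted p = 9.95e-05) in LI by edgeR's test.

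mt-Cytb (chrM:14145-15288, plus strand), the only mitochondrially encoded subunit of complex III, stood at 13434, 8613 and 6341 CPM per kilobase in SI tissue and at 576, 594 and 513 in monolayers. In LI it stood at 2651, 2833 and 2636 with tissue and at 530, 544 and 512 with monolayers. The monolayers of both regions overlapped in level although the tissues were far apart. Its log2 fold change was -4.08 ± 0.25 in SI and -2.36 ± 0.23 in LI. By counts, mt-Cytb ranked 2 to 3 in SI tissue and 14 to 18 in LI tissue, but 188 to 227 in the SI monolayers and 232 to 257 in the LI monolayers.

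The ATP synthase subunits mt-Atp8 and mt-Atp6 showed the deepest falls in both regions. mt-Atp8 (chrM:7766-7969, plus strand) had 2395, 1814 and 1451 counts in the libraries of SI tissue but 70, 110 and 60 in those of SI monolayers. In LI it had 918, 932 and 857 counts with tissue and 75, 95 and 99 with monolayers, and the groups of each region were far apart. Its log2 fold change was -4.76 ± 0.29 in SI and -3.11 ± 0.28 in LI, and that of mt-Atp6 was -4.59 ± 0.32 and -2.79 ± 0.31. The 2 genes share 43 bases and lie on the same strand, so reads in the shared stretch cannot be given to one of them. The other subunits of complex IV, mt-Co2 and mt-Co3, had log2 fold changes of -4.26 and -3.83 in SI and of -2.43 and -2.18 in LI.

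The 7 subunits of complex I, the NADH dehydrogenase, had log2 fold changes of -3.18 (mt-Nd3) to -3.72 (mt-Nd4) in SI. In LI their changes ranged from -0.80 (mt-Nd6) to -1.91 (mt-Nd3), and mt-Nd1, mt-Nd2, mt-Nd3, mt-Nd4 and mt-Nd4l were called. mt-Nd5 (chrM:11742-13565, plus strand) stood at 3407, 2389 and 1679 CPM per kilobase in SI tissue and at 266, 261 and 218 in monolayers. In LI it stood at 583, 620 and 519 with tissue and at 336, 322 and 310 with monolayers. The log2 change of mt-Nd5 was -3.33 ± 0.24 in SI and -0.83 ± 0.22 in LI, where the adjusted p of edgeR's test was 0.00776 and the minimum fold change was missed. mt-Nd6 (chrM:13552-14070), the only protein-coding gene on the minus strand, behaved alike in size, with -3.41 ± 0.26 in SI and -0.80 ± 0.24 (adjusted p = 0.0147, edgeR) in LI. mt-Nd5 and mt-Nd6 share 14 bases on opposite strands, and the strand setting of the counting was not given in the sources used here, so reads of either strand over mt-Nd6 cannot be told apart.

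mt-Rnr1 (chrM:70-1024, plus strand), the rRNA of the small mitochondrial ribosomal subunit, stood at 1635, 1035 and 868 CPM per kilobase in SI tissue and at 132, 126 and 119 in monolayers, and in LI at 476, 465 and 430 with tissue and at 369, 393 and 356 with monolayers. mt-Rnr2 (chrM:1094-2675, plus strand), the rRNA of the large subunit, stood at 2146, 1576 and 1111 in SI tissue and at 128, 118 and 97.6 in monolayers, and in LI at 615, 545 and 510 with tissue and at 361, 411 and 392 with monolayers. In LI, tissue and monolayers thus lay next to each other, while in SI they lay about an order of magnitude apart. The log2 fold changes were -3.23 ± 0.21 and -3.81 ± 0.24 in SI and -0.29 ± 0.19 (adjusted p = 0.206, edgeR) and -0.52 ± 0.21 (adjusted p = 0.0540, edgeR) in LI.

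**Figure D2:**
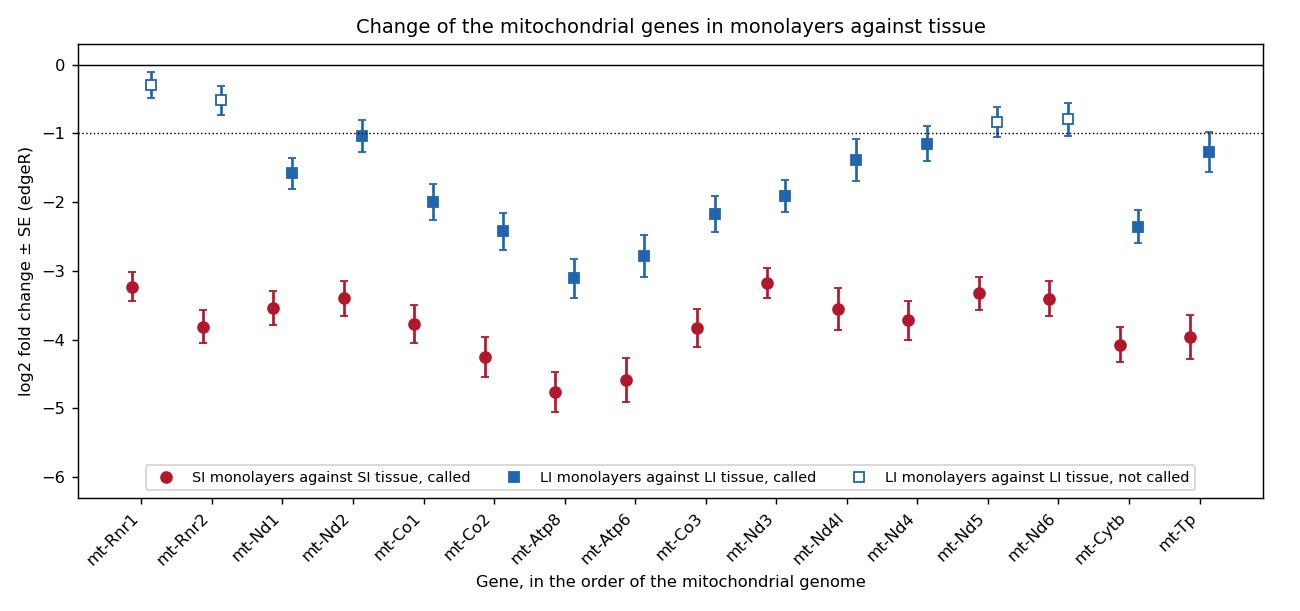
log2 fold change ± SE of monolayers against tissue (vertical axis) for the 16 tested mitochondrial genes in the order of the genome, in SI (circles) and LI (squares); open symbols were not called, and the dotted line marks the minimum fold change. Every gene lies lower in SI than in LI, and mt-Rnr1, mt-Rnr2, mt-Nd5 and mt-Nd6 in LI lie above the dotted line.

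The difference between both changes was tested as the interaction of region and preparation. All 16 genes had a deeper fall in SI than in LI, where 8.51% of all tested genes were called in this direction. The difference in log2 change ran from -1.27 ± 0.31 (mt-Nd3; adjusted p = 0.00615, edgeR) to -3.29 ± 0.31 (mt-Rnr2; adjusted p = 2.22e-05), with -2.94 ± 0.28 for mt-Rnr1. The rRNA genes had the largest differences of the 16, followed by mt-Tp (-2.69) and mt-Nd6 (-2.61). Without replicate 1 of SI tissue the value of mt-Nd3 was -0.98, short of the minimum, and 15 of 16 were called.

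Between the tissues, all 16 genes were higher in SI than in LI, where 11.6% of all tested genes were called higher in SI. None of the 16 overlapped between the tissues (58.6% of all tested genes). The log2 fold changes ran from 1.20 ± 0.25 (mt-Co1; adjusted p = 0.00328, edgeR) to 2.19 ± 0.24 (mt-Nd2; adjusted p = 4.89e-05). The complex I genes lay between 1.86 and 2.19, mt-Cytb at 1.81, the complex IV and V genes between 1.20 and 1.56, and the rRNA genes at 1.37 and 1.53. Without replicate 1 of SI tissue, the library with the highest mitochondrial share, mt-Co1 was at 0.82 and no longer met the minimum fold change.

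Between the monolayers, only the rRNA genes were called. mt-Rnr1 was lower in SI monolayers by 1.57 ± 0.20 on the log2 scale (adjusted p = 0.00011, edgeR) and mt-Rnr2 by 1.76 ± 0.22 (adjusted p = 0.000107, edgeR), where 8.88% of all tested genes were called lower. The 13 protein-coding genes had a median of -0.27 and ranged from -0.57 (mt-Co1) to 0.76 (mt-Nd3). mt-Nd3 (adjusted p = 0.0179, edgeR) and mt-Tp, at -0.81 (adjusted p = 0.0490, edgeR), passed on the p-value but not on the fold. Of the 16 genes, 9 did not overlap between the monolayers, against 62.4% of all tested genes.

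Within the mitochondrial counts, the proportions also shifted. The rRNA genes had 5.34, 6.01 and 6.09 counts per 100 protein-coding counts in SI tissue, 6.42, 5.98 and 6.12 in SI monolayers and 6.31, 5.40 and 5.76 in LI tissue. In LI monolayers they had 14.4, 15.7 and 15.5. The first 3 groups overlapped, and only LI monolayers stood apart. The ratio of mt-Rnr2 to mt-Rnr1 counts was 2.27 ± 0.218 in SI tissue and 2.02 ± 0.110 in LI tissue, but 1.51 ± 0.132 and 1.73 ± 0.102 in the monolayers (SD, n = 3), lower in both regions without overlap. Whether the library preparation selected polyadenylated RNA or removed rRNA was not given in the sources used here, and these ratios hold for the counts rather than for the molecules in the cell.

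Among the 13 protein-coding genes, complex I took 31.0 ± 0.885% of their counts in SI tissue and 36.2 ± 1.35% in monolayers, and in LI 21.5 ± 0.527% with tissue and 33.2 ± 0.579% with monolayers. Complex IV, nearly all of it mt-Co1, took 51.9%, 50.5%, 64.6% and 57.2% in the same order. Complex III took 16.9%, 13.2%, 13.7% and 9.49%, and complex V 0.204%, 0.108%, 0.211% and 0.103%. In SI, 6 genes, all of complex I, took a larger share in monolayers without overlap, and 4 (mt-Co2, mt-Atp8, mt-Atp6 and mt-Cytb) a smaller one. In LI, 5 genes of complex I took a larger share and the 6 genes of complexes III, IV and V a smaller one.

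The share of mt-Nd5 was 9.27 ± 0.213% in SI monolayers and 9.23 ± 0.270% in LI monolayers, against 7.14 ± 0.412% in SI tissue and 4.62 ± 0.120% in LI tissue. The counts of mt-Nd5 per count of mt-Nd6, its neighbour on the other strand, were 4.95 to 5.26 in SI tissue and 5.02 to 5.78 in monolayers, and in LI 4.80 to 5.45 with tissue and 4.79 to 5.13 with monolayers, and all 4 groups overlapped. The ratio of mt-Co1 to mt-Nd1 counts, in contrast, was 3.99 to 4.47, 3.56 to 3.85, 6.46 to 7.17 and 4.84 to 5.41 in the same order, with no overlap between any of the groups compared.

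**Figure D3:**
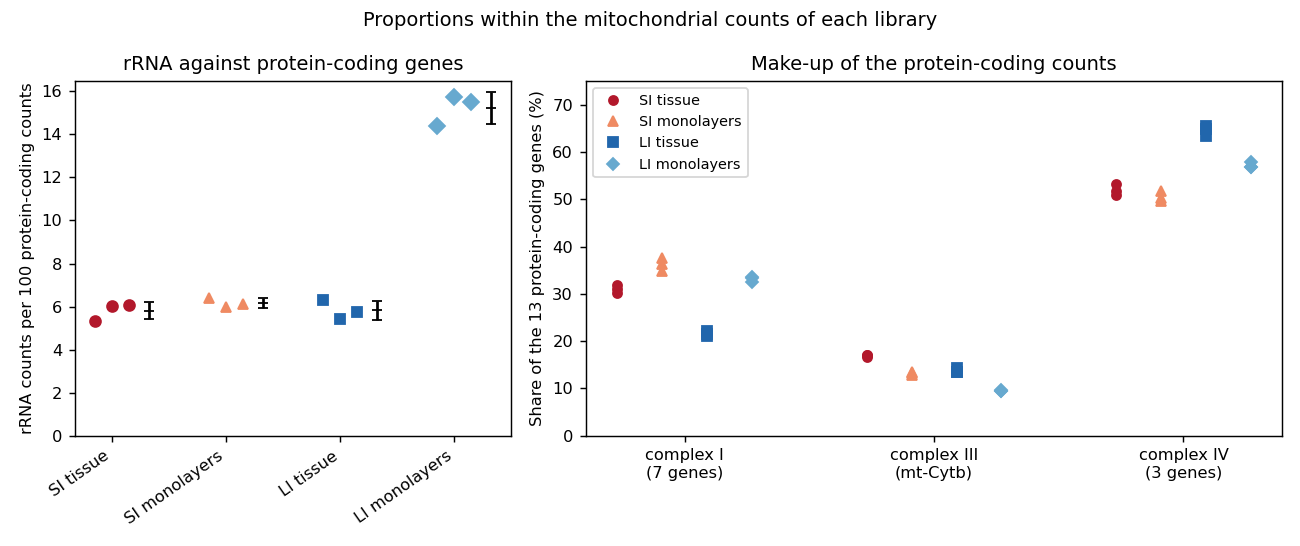
Left, rRNA counts per 100 counts of the protein-coding genes in each library, with mean ± SD of 3; right, share of the counts of the 13 protein-coding genes (%) that fell on complexes I, III and IV, 1 point per library. LI monolayers stand at 14.4 to 15.7 rRNA counts, the other 9 libraries at 5.34 to 6.42, and complex I is higher in monolayers than in tissue in both regions.

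The level per length differed widely between the protein-coding genes, and 5 of the 7 genes with a copy on chromosome 1 were low. Windows of 100 bases that also occur in another annotated transcript made up 97.6% to 99.9% of mt-Co2, mt-Atp6, mt-Co3, mt-Nd3 and mt-Nd4l, 60.8% of mt-Nd4, 30.8% of mt-Co1 and 3.19% of mt-Nd2, and none of mt-Nd1, mt-Nd5, mt-Nd6, mt-Cytb and mt-Atp8. In SI tissue the first 5 genes had mean levels of 42.0 to 247 CPM per kilobase, whereas mt-Nd1, mt-Nd2, mt-Nd5, mt-Nd6 and mt-Cytb had 1732 to 9463. The other 2 genes with a copy were not low, as mt-Co1 had the highest mean of the 13 genes (21537) and mt-Nd4 had 2315. Both sets were also without overlap in SI monolayers (3.55 to 17.3 against 163 to 693), LI tissue (9.70 to 85.4 against 398 to 2707) and LI monolayers (3.74 to 18.9 against 229 to 745). mt-Atp8, at 149 ± 51.6 in SI tissue, was as low as the first set although no annotated copy of it was found, but it lies inside the stretch that corresponds to the block on chromosome 1, whose unannotated bases were not searched.

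The copies held counts of their own. The copy Gm10925 took 59.2% to 61.2% (group means) of the counts of itself and mt-Atp6, Gm28661 53.4% to 56.5% of those with mt-Co2, Gm28437 46.3% to 47.6% of those with mt-Co3, Gm28438 45.8% to 49.4% of those with mt-Nd3 and Gm10222 39.9% to 46.7% of those with mt-Nd4l. Gm29216 took 0.252% to 0.320% beside mt-Co1 and Gm28439 0.970% to 1.23% beside mt-Nd4. These counts changed side by side with those of the genes they copy: Gm10925 had a log2 fold change of -4.68 ± 0.33 in SI and -2.75 ± 0.31 in LI, next to -4.59 and -2.79 for mt-Atp6. All 7 copies were called lower in monolayers of SI and LI (16.4% and 23.5% of all tested genes) and higher in SI tissue than in LI tissue (11.6%). How the reads were divided between the copies was not given in the sources used here, so the levels of these 7 genes are uncertain, and the part of the copies in the low levels was not tested. With the counts of the copies added to their genes, 16, 12, 16 and 2 of the 16 genes were called in the 4 comparisons, as before.

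**Figure D4:**
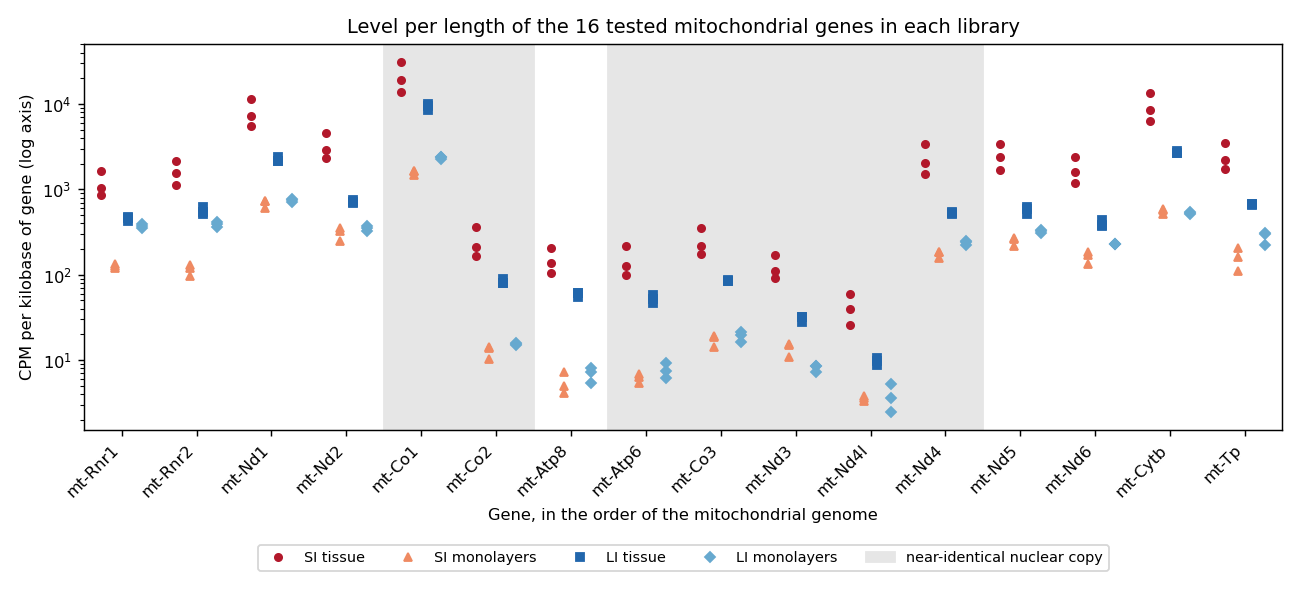
CPM per kilobase of gene (log axis) of the 16 tested mitochondrial genes in each of the 12 libraries, in the order of the genome; grey marks genes with a near-identical copy in the nuclear genome. SI tissue is the highest group for every gene, and mt-Co2, mt-Atp8, mt-Atp6, mt-Co3, mt-Nd3 and mt-Nd4l lie below the other genes in all groups.

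Of the 22 tRNA genes, 16 had no count in any library, and mt-Tp held 99.9% of the tRNA counts with 46992 in all. It had 13296, 9711 and 7903 counts in SI tissue and 937, 796 and 536 in monolayers, and in LI 3284, 3409 and 3496 with tissue and 1039, 1175 and 1410 with monolayers. The groups of each region did not overlap. The log2 fold change of mt-Tp was -3.96 ± 0.32 (adjusted p = 4.78e-06, edgeR) in SI and -1.27 ± 0.29 (adjusted p = 0.00365, edgeR) in LI. mt-Tp is the last annotated gene before the non-coding control region, in which transcription starts, and the table has no feature for that region. The other 5 tRNA genes with any count, mt-Tc, mt-Te, mt-Tn, mt-Tm and mt-Tl1, had 25, 24, 12, 2 and 1 counts over the 12 libraries, too few to test. tRNAs are short, and standard RNA libraries hold few fragments of their size. mt-Tp is as short, at 67 bases, and why it held many counts was not tested. As for mt-Nd6, reads of either strand over mt-Tp cannot be told apart.

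The nuclear genes that work beside the mitochondrial ones were read from 10 lists in the same fits. The 82 nuclear subunits of the respiratory chain and ATP synthase had 78 tested genes, of which 28 were lower and 0 higher in SI monolayers (median log2 fold change -0.95, lowest -3.01, where 16.4% of all tested genes were lower and 9.71% higher) and 64 lower and 0 higher in LI monolayers (median -1.45, lowest -3.92, where 23.5% of all were lower and 14.5% higher). The mitochondrially encoded genes thus had the lower median in SI (-3.75), whereas in LI both medians lay close together (-1.48 and -1.45). At an unadjusted p under 0.05 of edgeR's test, 77 of the 78 were lower and 0 higher in each region, where 32.7% of all tested genes were lower and 30.5% higher in SI and 37.8% and 33.1% in LI. DESeq2 called 36 of them lower in SI (17.4% of all genes it tested, and 9.28% higher) and 67 in LI (24.1%, and 13.9% higher), with 0 higher in both. Examples taken by rule are Cox7a1, an isoform of a complex IV subunit, at -3.01 ± 0.13 in SI and -3.92 ± 0.15 in LI, and Ndufb8, an accessory subunit of complex I, at -1.37 ± 0.07 and -2.40 ± 0.07. Between the tissues, where all 16 mitochondrial genes were higher in SI, 2 of the 78 were higher and 0 lower by edgeR and by DESeq2 (11.6% and 11.1% of all tested genes by edgeR, 11.4% and 11.5% by DESeq2), with 29 higher and 15 lower at an unadjusted p under 0.05 (31.5% and 26.8% of all).

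The counts of the other lists are read against the same shares of all tested genes, called by edgeR 9.71% higher and 16.4% lower in SI and 14.5% and 23.5% in LI. At an unadjusted p under 0.05 of edgeR's test, these shares were 30.5% higher and 32.7% lower in SI, and 33.1% and 37.8% in LI. Of 77 tested mitochondrial ribosomal proteins, which assemble with the 2 rRNAs, 0 were called in SI by edgeR and by DESeq2 (median -0.12), with 18 higher and 35 lower at an unadjusted p under 0.05. In LI, 1 was called higher and 6 lower by edgeR (median -0.33), while 9 were higher and 50 lower at an unadjusted p under 0.05. Of 11 tested genes of mitochondrial DNA transcription, 0 were called in SI by either tool (median -0.25, lowest -0.94), with 2 higher and 5 lower at an unadjusted p under 0.05. In LI 2 were called lower by edgeR (median -0.33), with 1 higher and 6 lower at an unadjusted p under 0.05. Of 23 tested genes of mitochondrial RNA processing, stability and decay, 0 were called in SI by either tool (median 0.01), with 7 higher and 8 lower at an unadjusted p under 0.05. In LI 1 was called higher and 4 lower by edgeR, with 11 higher and 8 lower at an unadjusted p under 0.05. Of 24 genes of rRNA and tRNA modification, 1 was higher in SI, and 2 were higher and 2 lower in LI. Nsun2, an RNA methyltransferase, rose in both, by 1.23 ± 0.05 and 1.39 ± 0.05 on the log2 scale.

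Of 20 genes that replicate and maintain mitochondrial DNA, 1 was higher in SI, and 4 were higher and 3 lower in LI. Slc25a33, a mitochondrial carrier of pyrimidine nucleotides, rose in both regions, by 1.92 ± 0.14 and 1.55 ± 0.14. Of 22 mitochondrial aminoacyl-tRNA synthetases, 1 was higher and 1 lower in SI, and 1 was lower in LI. Of 15 regulators of mitochondrial biogenesis, 2 were higher and 5 lower in SI (9.71% and 16.4% of all tested genes), and 2 higher and 6 lower in LI (14.5% and 23.5%). Ppargc1a, a coactivator of nuclear genes for mitochondrial proteins, fell by 3.02 ± 0.13 in SI and by 1.29 ± 0.13 in LI, and stood at 52.7, 60.4 and 42.0 CPM in SI tissue and 6.12, 6.87 and 6.10 in SI monolayers. The nuclear receptor Esrrg changed by -1.84 ± 0.23 and -3.08 ± 0.26, whereas Myc, a transcription factor of growth, rose by 2.02 ± 0.07 and 3.15 ± 0.07, and the coactivator Pprc1 rose by 1.03 ± 0.08 and 1.89 ± 0.08.

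Of 19 tested genes of the mitochondrial stress response, 9 were called higher in SI (9.71% of all tested genes) and 10 in LI (14.5%) by edgeR, with 0 lower (16.4% and 23.5%; by DESeq2 0 in SI and 1 in LI, and at an unadjusted p under 0.05, 2 and 5). The list includes Chac1 (4.40 ± 0.46 and 4.28 ± 0.46), which degrades glutathione, and Psat1 (3.82 ± 0.13 and 3.16 ± 0.13) of serine synthesis, both also targets of the general amino acid response. Of 18 genes of mitophagy and fission, 3 were higher and 1 lower in SI (9.71% and 16.4% of all tested genes), and 5 were lower in LI (23.5%). Pink1, a kinase that marks damaged mitochondria, fell by 1.49 ± 0.07 and 1.17 ± 0.07. The 12 proliferation markers, set beside these, summed in SI to 1112 to 1184 CPM in tissue and 1582 to 1607 in monolayers, and in LI to 866 to 961 with tissue and 1407 to 1500 with monolayers, and the part of the cell composition in these lists was not tested.

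**Figure D5:**
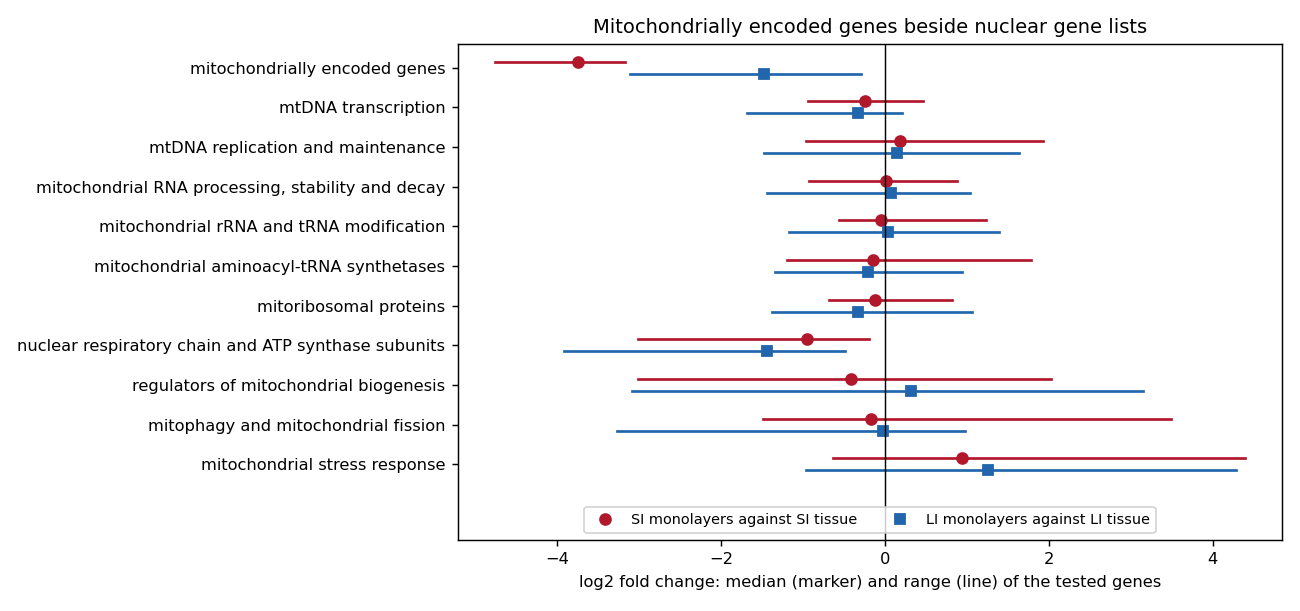
Median (marker) and range (line) of the log2 fold change of monolayers against tissue for the 16 tested mitochondrially encoded genes and for 10 lists of nuclear genes, in SI (circles) and LI (squares). The mitochondrially encoded genes have the lowest median in SI (-3.75), and share the low medians in LI with the nuclear respiratory chain subunits (-1.48 and -1.45).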

How the data were processed

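The authors deposited a table of raw counts per gene for 12 libraries (whole numbers, not normalized), which, per the labels and methods, came from paired-end HiSeq sequencing, alignment to GRCm38 by STAR 2.7.9a and counting by featureCounts 2.0.2 on the GENCODE annotation. Settings for strand, mates and reads that map to several places were not given in the sources used here. Among counts of 1 to 20, 73.4% to 77.4% were even (50% by chance), so both mates of a fragment may have been counted, and counts halved are among the alternatives. A second deposited table of normalized values was not used. Groups come from the sample labels.

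Of 55487 genes, 55141 were named from GENCODE and 346 were not. Differential expression was tested with edgeR 4.0.16 (R 4.3.3) after filterByExpr (19581 genes) and TMM scaling, by robust quasi-likelihood fits of 4 group means, with Benjamini-Hochberg adjustment within each of 5 comparisons. SEs are the log2 fold change divided by the square root of F. The edgeR step was run on simulated counts with known changes placed in SI monolayers and was checked in the comparison with SI tissue only. That run did not check the interaction. Shares of counts use all counts of a library. Copies were sought with blastn 2.17.0 among all other annotated transcripts (at least 99% identity over at least 100 bases). Reads in genes that overlap cannot be told apart.

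The genes and lists were chosen with earlier results of these data known. The rule named all 37 genes, their nuclear copies, and in each nuclear list the 2 genes with the largest mean rise and the 2 with the largest mean fall among those called in one direction in both regions. Whether replicate numbers pair the libraries was not given in the sources used here, and the main fits did not pair them. Alternatives were DESeq2 1.42.0, upper quartile scaling, scaling without the mitochondrial genes, other filters, calls without a fold minimum, fits of the compared groups alone, a replicate block, other denominators and each library left out. Adding copies to their genes was chosen after seeing the data. The values of 1 marker gene are not reported here.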

Additional observations from a re-analysis of the deposited data

Results flagged for a closer look

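For all 16 tested genes the change of monolayers against tissue differed between SI and LI by the interaction test of edgeR (adjusted p from 2.19e-05 for mt-Rnr1 to 0.00705 for mt-Atp6). The difference in log2 change, SI minus LI, was -2.94 for mt-Rnr1, -3.29 for mt-Rnr2 and -2.69 for mt-Tp. Among the complex I genes it was -1.96 for mt-Nd1, -2.36 for mt-Nd2, -1.27 for mt-Nd3, -2.18 for mt-Nd4l, -2.57 for mt-Nd4, -2.50 for mt-Nd5 and -2.61 for mt-Nd6. For mt-Cytb it was -1.72, for mt-Co1 -1.77, for mt-Co2 -1.83 and for mt-Co3 -1.66. For the ATP synthase genes it was -1.65 for mt-Atp8 and -1.80 for mt-Atp6. No test for outlying libraries was made, since every group held 3.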

How the results depend on the processing

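The count of genes called was within 1.5 times the reported one under every alternative except 1: with no minimum fold change, 4 genes (1 higher, 3 lower) rather than 2 differed between SI and LI monolayers. Correlations of same-numbered libraries ran from -0.09 to 0.06, with the own number highest in 3 of 18. They gave no sign of pairing by number but cannot exclude shared mice or days. The replicate number as a block left 16, 12, 16, 2 and 16 genes called. Without replicate 1 of SI tissue, mt-Co1 between the tissues (0.82) and mt-Nd3 in the interaction (-0.98) missed the minimum fold change. Of 80 recomputed shares, 7 moved by more than 1 SD of the 3 libraries. Leaving out 1 library of 3 cannot move a mean that far, so those recomputations could not be marked. They do not show that the shares hold without each library. The protein-coding share of SI tissue depended on replicate 1, at 8.67% against 5.57% and 4.28% in the other libraries. Without the 10 most abundant nuclear genes of each library, the shares were 2.64% (all 37), 2.49% (protein-coding) and 0.00495% (tRNA) in LI tissue, and 0.777% (all 37), 0.673% (protein-coding) and 0.102% (rRNA) in LI monolayers. Against nuclear counts, the tRNA share of LI tissue was 0.00472%. Upper quartile scaling moved the median of all genes in LI by -0.12. Groups of 3 libraries, unknown counting of multiply mapped reads and 49 to 91 counts of mt-Nd4l in LI monolayers limit the precision.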
